A study of Mus musculus with 12 samples.

Results

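A group of 9 lysosomal genes was followed across cardiac differentiation of mouse embryonic stem cells: the cathepsins Ctsb, Ctsl, Ctsz, Ctsd and Ctsa, the glycosidases Hexa, Glb1 and Gusb, and the lysosomal membrane glycoprotein Lamp2. Members were taken by gene symbol. They were the 9 of 18193 genes named by a probe set of the array whose symbol is exactly one of these, and all 9 were among the 13167 genes bright enough to be tested. Between them they have 21 probe sets, of which 19 were tested, and the brightest of a gene's probe sets stands for it, with the others as a check. The study derived cardiopoietic cells, a purified stage of cardiac commitment, from CGR8, a single established line of mouse embryonic stem cells, and profiled RNA on 12 Affymetrix Mouse 430 2.0 arrays, 3 for each of 4 stages. ES-LIF(+) cells were grown in leukemia inhibitory factor (LIF), which holds the pluripotent state, in 7.5% serum, and ES-LIF(-) cells had spent 48 h without it in the same serum. Cardiopoietic cells (CP) had 5 days of TNFα (30 ng/ml) in 3% serum, and cardiomyocytes (CM) 9 days of culture in 20% serum. Both followed stimulation with 1 cocktail of growth factors and interleukins (TGFβ, BMP, VEGF, EGF, FGF, IGF1, IL3, IL6 and IL-13) and both were enriched on Percoll gradients, so that stage, serum, culture time and enrichment change together and cannot be told apart. The study's methods describe the 3 arrays of a stage as independent samplings.

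Cathepsins are proteases that mature in the acidic lumen of the lysosome and degrade proteins delivered by endocytosis and autophagy, and several are also secreted and cleave extracellular matrix. Lysosomal glycosidases remove single sugars from glycoproteins, glycolipids and glycosaminoglycans, and an inherited lack of one of them leads to storage of its substrate. In many mammalian cells a number of lysosomal genes are activated together by the transcription factor TFEB, which binds a palindrome with the core CACGTG near their start sites. In the heart lysosomal turnover is a matter of cardiomyocyte survival, and in humans a lack of LAMP2 gives Danon disease, in which autophagic vacuoles fill heart and skeletal muscle.

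The promoters are shown because the members share an annotated class of genes and a described binding sequence, and because the level of Tfeb itself changed between the stages. Mouse promoter windows of RefSeq (GRCm38.p6, 250 bases before to 50 bases after the start, 300 in all) were held for 8 of the 9 members, with a pair of windows for Ctsa, and Ctsb was without one. CACGTG, which reads the same on both strands, was found in 4 of the 8 members, and in 8.09% of all 27025 genes with a window and 7.15% of all 32851 windows. The longer GTCACGTG, searched on both strands and always containing CACGTG, was found in 3 members (Ctsd, Ctsa and Glb1), and in 2.55% of all genes. The whole palindrome GTCACGTGAC was found in 0 of 8 members and in 0.37% of all genes. Of 93 other lysosomal genes with a window, 24.7% held CACGTG, 17.2% GTCACGTG and 2.15% the whole palindrome. Counted from the start site, CACGTG begins at -245 and -98 in Ctsd, at -12 and 6 in the second window of Ctsa, at -48 in Glb1 and at -236 in Ctsl. The windows of Ctsz, Gusb, Hexa and Lamp2 and the first window of Ctsa do not hold these letters. The 250 bases before the start of those 4 promoters read as follows, 5′ to 3′ on the gene's strand, with CACGTG in capitals.
Ctsd, chr7:142387828-142388077, minus strand: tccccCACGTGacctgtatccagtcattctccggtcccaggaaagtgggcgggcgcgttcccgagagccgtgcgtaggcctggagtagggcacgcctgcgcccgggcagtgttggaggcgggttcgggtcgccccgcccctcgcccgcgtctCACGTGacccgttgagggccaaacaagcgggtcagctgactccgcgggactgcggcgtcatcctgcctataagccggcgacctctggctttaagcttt
Ctsa, chr2:164833523-164833772, plus strand: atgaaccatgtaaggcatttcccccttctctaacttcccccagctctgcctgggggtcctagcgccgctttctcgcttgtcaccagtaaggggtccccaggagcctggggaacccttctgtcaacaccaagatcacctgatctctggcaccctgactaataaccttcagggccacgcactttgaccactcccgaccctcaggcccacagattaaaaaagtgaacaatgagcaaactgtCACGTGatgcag
Glb1, chr9:114400828-114401077, plus strand: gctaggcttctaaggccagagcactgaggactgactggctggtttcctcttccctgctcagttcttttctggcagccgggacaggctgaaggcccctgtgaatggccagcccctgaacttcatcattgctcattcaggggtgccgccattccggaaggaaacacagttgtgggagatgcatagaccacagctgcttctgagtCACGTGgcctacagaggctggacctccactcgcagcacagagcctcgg
Ctsl, chr13:64370521-64370770, minus strand: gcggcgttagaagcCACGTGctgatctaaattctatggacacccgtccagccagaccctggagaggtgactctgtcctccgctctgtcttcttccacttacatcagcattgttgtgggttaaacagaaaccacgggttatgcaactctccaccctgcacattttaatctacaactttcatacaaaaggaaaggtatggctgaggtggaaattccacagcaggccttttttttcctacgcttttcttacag
A match is a description of the sequence, and the arrays carry no measurement of binding.

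Signals are MAS5 intensities, and every array has the same trimmed mean signal of 500. The median probe set read 101 to 110.9 on the ES-LIF(+) arrays, 104.3 to 110.2 on ES-LIF(-), 128.9 to 136.3 on CP and 127.7 to 144.1 on CM, so that the middle of the distribution was higher in CP and CM. Centring each array on its median would lower every log2 fold change by 0.28 in CP and by 0.32 in CM against ES-LIF(+), and calls of members that end under that scaling are named with their gene. Fold changes are differences of mean log2(signal + 16), which understates those of dim probe sets, and a gene was called where limma's Benjamini-Hochberg adjusted p over all tested probe sets was under 0.05 and the fold above 1.5. Each array reads RNA of many cells together, so that more cells of a type and more RNA per cell cannot be told apart. The stage labels were set against markers. Summed signals of 5 pluripotency genes (Pou5f1, Nanog, Sox2, Zfp42 and Esrrb) ran from 48226 to 49786 in ES-LIF(+), 23447 to 28523 in ES-LIF(-), 29070 to 30036 in CP and 5661 to 7943 in CM, and those of 5 cardiomyocyte genes (Tnnt2, Myh6, Actn2, Myl7 and Nppa) were at most 559 in ES-LIF(+), 1544 to 1806 in CP, where Myh6 and Actn2 were not above the array median on all 3 arrays, and at least 93285 in CM.

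Levels of all 9 members differed across the 4 stages by limma's F test, with adjusted p between 2.05e-12 for Ctsb and 0.00161 for Ctsz. Of all tested genes 73.1% passed the same test. In CP against ES-LIF(+), 5 of 9 members were called, each higher (Ctsb, Ctsd, Lamp2, Ctsa and Ctsl), where 32% of all tested genes were called and 18.7% were higher. In CM against ES-LIF(+), 4 members were higher (Ctsb, Ctsd, Lamp2 and Ctsa) and 1 was lower (Glb1), where 49.6% of all tested genes were called, 25.7% higher and 23.9% lower. The median log2 fold change of the members was 0.74 in CP and 0.58 in CM, against 0.04 and 0.06 over all tested genes in those comparisons. With each array centred on its median these were 0.46 and 0.26 for the members, against -0.24 and -0.26 for all tested genes. The comparisons with ES-LIF(+) share its 3 arrays.

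**Figure D1:**
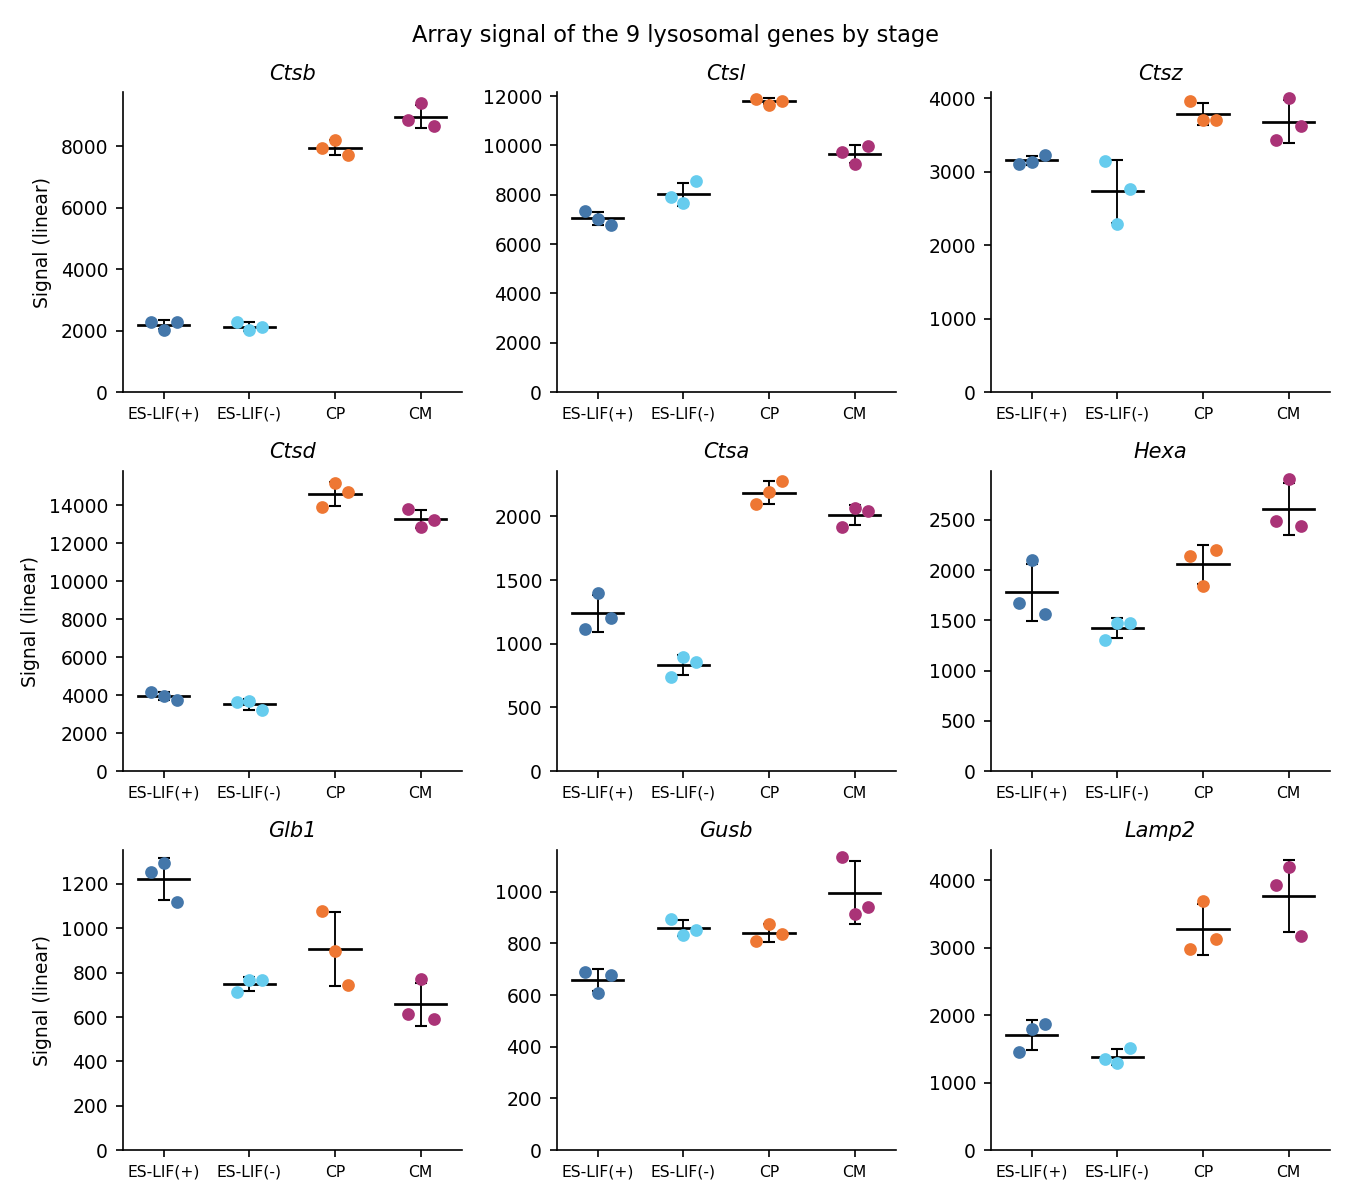
MAS5 signal (linear axis from 0) of the brightest probe set of each of the 9 members by stage, with a point for each array, a line at the mean of 3 and bars of 1 SD. Ctsb and Ctsd stand more than 3-fold above ES-LIF(+) on all CP and CM arrays, whereas Glb1 is highest in ES-LIF(+).

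Cathepsin B, a cysteine protease that acts as endopeptidase and as peptidyl-dipeptidase, gave the widest separation of the stages. Ctsb read 2276.4, 2017.3 and 2278.9 in ES-LIF(+), 2276.7, 2014.2 and 2118.2 in ES-LIF(-), 7945.3, 8210.5 and 7713.2 in CP, and 8844.4, 9399.7 and 8659.8 in CM. All 6 CP and CM arrays lay far above all 6 embryonic stem cell arrays, the ES-LIF(-) values overlapped those of ES-LIF(+), and every CM array exceeded every CP array. Its log2 fold change was 1.85 in CP (95% interval 1.70 to 2.01, limma adjusted p = 5.24e-11) and 2.03 in CM (1.87 to 2.18, adjusted p = 8.32e-12) against ES-LIF(+). The step of 0.17 between CM and CP (0.02 to 0.33) had an adjusted p of 0.0848.

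Cathepsin L, the cysteine endopeptidase, was already bright in stem cells. Ctsl read 7325.4, 7032.6 and 6794.4 in ES-LIF(+), 7893.7, 7650.9 and 8552.3 in ES-LIF(-), 11896, 11655.1 and 11816.8 in CP, and 9742.2, 9263 and 9964 in CM. No stage overlapped another: the CM arrays lay between those of stem cells and those of CP, where the level peaked. In CP the log2 fold change over ES-LIF(+) was 0.74 (0.61 to 0.87, limma adjusted p = 2.42e-07), a call that ended under median centring, at 0.46. In CM it was 0.45 with an adjusted p of 1.52e-05, inside the 1.5-fold limit, and CM against CP gave -0.29 with an adjusted p of 0.00244, also inside it.

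Cathepsin Z, a cysteine carboxypeptidase also named cathepsin X, was the flattest cathepsin by its brightest probe set. Ctsz read 3107.8, 3131.3 and 3225.8 in ES-LIF(+), 3144.3, 2284.6 and 2766.7 in ES-LIF(-), 3960.7, 3695.5 and 3704.5 in CP, and 3423.2, 3996.5 and 3617.2 in CM. Its CP and CM arrays overlapped each other but not those of ES-LIF(+), and the spread was widest in ES-LIF(-), where replicate 2 was lowest. None of its comparisons was called on this probe set, with log2 fold changes of 0.26 in CP (limma adjusted p = 0.0404) and 0.22 in CM (adjusted p = 0.0683), which read -0.02 and -0.10 under median centring. A further probe set of Ctsz, of a class whose probes can also bind other transcripts, averaged 2373 ± 19.2 in CP and 2132 ± 215 in CM against 1217 ± 107 in ES-LIF(+) (SD, n = 3 each), and was called with log2 fold changes of 0.96 and 0.80, of which the CM call ended under median centring, at 0.48. The third was not called, at 0.49 and 0.43. The size of the Ctsz difference therefore depends on the probe set.

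Cathepsin D, the main aspartic protease of the lysosome, moved with Ctsb. Ctsd read 4153.9, 3950.1 and 3739.3 in ES-LIF(+), 3663.7, 3668.6 and 3202.9 in ES-LIF(-), 13893.6, 15139.5 and 14665.1 in CP, and 13801.6, 12829.7 and 13195 in CM. Every ES-LIF(-) array was below every ES-LIF(+) array and every CM array below every CP array, but both gaps were small beside the gap between stem cells and derivatives. The log2 fold change was 1.88 in CP (1.73 to 2.03, limma adjusted p = 3.85e-11) and 1.75 in CM (1.59 to 1.90, adjusted p = 3.73e-11) against ES-LIF(+). Those of ES-LIF(-) against ES-LIF(+), -0.17, and of CM against CP, -0.13, had adjusted p of 0.152 and 0.178.

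Cathepsin A is a serine carboxypeptidase that also protects β-galactosidase and neuraminidase from degradation by binding them in a complex. Ctsa read 1118.2, 1395.6 and 1201.9 in ES-LIF(+), 742.2, 898.7 and 855.9 in ES-LIF(-), 2095.7, 2188 and 2279.7 in CP, and 1918.7, 2064.9 and 2040.5 in CM. Its lowest level was in ES-LIF(-), and CP and CM were clear of both stem cell groups and, by array, of each other. Against ES-LIF(+) the log2 fold change was 0.82 in CP (limma adjusted p = 6.9e-06) and 0.70 in CM (adjusted p = 1.61e-05), and both calls ended under median centring, at 0.53 and 0.38. In ES-LIF(-) it was -0.56 with an adjusted p of 0.00137, just inside the 1.5-fold limit. The other probe set of Ctsa, much dimmer, overlapped in all comparisons and was not called.

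The 3 glycosidases did not share a pattern. Hexa, the α subunit of β-hexosaminidase A, which cleaves GM2 ganglioside and is deficient in human Tay-Sachs disease, read 1668.7, 2103.8 and 1562.1 in ES-LIF(+), 1306.4, 1478.2 and 1476.2 in ES-LIF(-), 2136.6, 1838.4 and 2203.1 in CP, and 2485.3, 2906.1 and 2440.3 in CM. CM was highest on every array and CP overlapped ES-LIF(+). The log2 fold change was 0.56 in CM (limma adjusted p = 0.000597) and 0.22 in CP (adjusted p = 0.133) against ES-LIF(+), neither past 1.5-fold, and the CP value read -0.07 under median centring. Without ES-LIF(+) replicate 2, the highest of its stage, the CM value was 0.68 and was called.

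Glb1, β-galactosidase, the enzyme of GM1 ganglioside and keratan sulfate, was the member that fell. Glb1 read 1251.7, 1296 and 1116.2 in ES-LIF(+), 711.4, 768.6 and 766.7 in ES-LIF(-), 1075.8, 897 and 743.6 in CP, and 612.9, 769.5 and 589.2 in CM. All ES-LIF(+) arrays stood above the 9 others, CP spread widely, and CM overlapped both CP and ES-LIF(-). It was lower in CM by a log2 fold change of -0.89 (limma adjusted p = 3.65e-05) and in ES-LIF(-) by -0.69 (adjusted p = 0.00323) against ES-LIF(+). In CP the value of -0.44 passed the adjusted p, at 0.0142, but not the fold limit, and with median centring it was called, at -0.72. Of Glb1 and its protective partner Ctsa, the first was lower and the second higher in CM than in ES-LIF(+), and both had lower means in ES-LIF(-).

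Gusb, β-glucuronidase, which removes glucuronic acid from glycosaminoglycans, was lowest in ES-LIF(+). It read 687.6, 608.3 and 676.6 in ES-LIF(+), 894.3, 832.3 and 851.5 in ES-LIF(-), 807.8, 875 and 835.3 in CP, and 1134.7, 913.3 and 941.6 in CM. All 9 other arrays exceeded all ES-LIF(+) arrays, ES-LIF(-) and CP overlapped, and CM was clear of both. The log2 fold change against ES-LIF(+) was 0.38 in ES-LIF(-), 0.35 in CP and 0.58 in CM, with limma adjusted p of 0.0243, 0.0115 and 0.000145, all inside 1.5-fold. The CM value lies at the limit, since it was called, at 0.60 to 0.64, once any of ES-LIF(+) replicate 1, ES-LIF(+) replicate 3, CM replicate 2 or CM replicate 3 was left out. The other probe set of Gusb averaged 712 ± 34.5 in CP and 848 ± 55.0 in CM against 356 ± 69.8 in ES-LIF(+) (SD, n = 3 each), with called log2 fold changes of 0.98 and 1.23. In ES-LIF(-) that set gave only 0.12 (limma adjusted p = 0.711), and its arrays overlapped those of ES-LIF(+).

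Lamp2 is a heavily glycosylated protein of the lysosomal membrane that is needed for fusion of autophagosomes with lysosomes, and 1 of its splice forms is the receptor of chaperone-mediated autophagy. Lamp2 read 1455.7, 1799.8 and 1867.2 in ES-LIF(+), 1349.9, 1287.2 and 1513.3 in ES-LIF(-), 2982.7, 3695.6 and 3133.9 in CP, and 3935.5, 4191.9 and 3172.6 in CM. The stem cell groups overlapped, CP and CM overlapped, and no CP or CM array was as low as any stem cell array. Its log2 fold change over ES-LIF(+) was 0.93 in CP (limma adjusted p = 1.72e-05) and 1.13 in CM (adjusted p = 1.07e-06). The other 3 probe sets of Lamp2 gave larger ones, 1.08 to 2.48 in CP and 1.56 to 2.54 in CM, each called. The set with 1.08 in CP overlapped ES-LIF(+) there, with 1965.5 in CP replicate 2 against 2061.3 in ES-LIF(+) replicate 2. Another of the 3 averaged 2350 ± 48.7 in CP and 2458 ± 210 in CM against 413 ± 68.9 in ES-LIF(+) (SD, n = 3 each), a ratio of means of 5.69 in CP and 5.95 in CM. Which splice form each probe set reads was not analysed here.

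**Figure D2:**
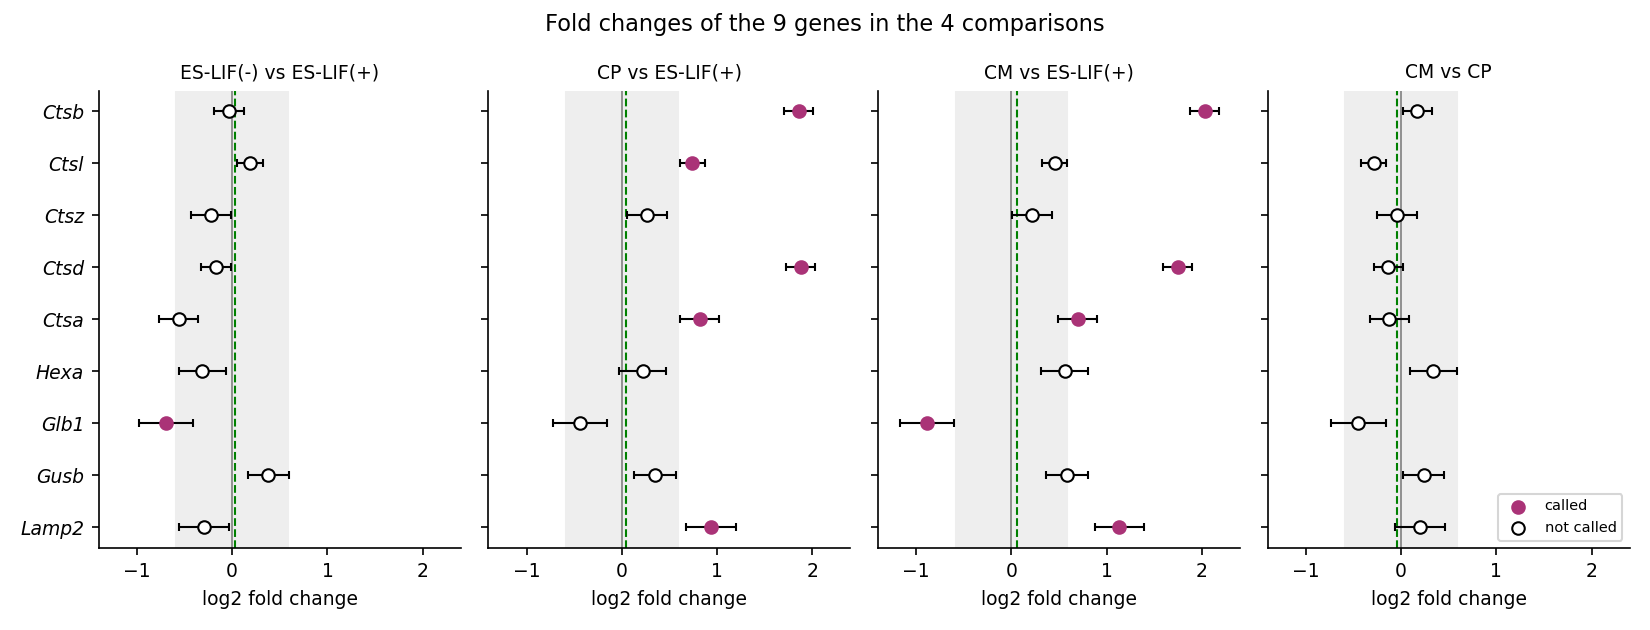
Log2 fold change with 95% interval of each member (brightest probe set) in ES-LIF(-), CP and CM against ES-LIF(+) and in CM against CP, with filled points for calls, a grey band for changes within 1.5-fold and a dashed line at the median of all tested genes. Ctsb at 1.85 and Ctsd at 1.88 lead in CP, Glb1 lies below 0 in all 4 comparisons, and all points lie inside the grey band in CM against CP.

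Withdrawal of LIF without the cocktail was the smallest of the comparisons with ES-LIF(+) by number of calls. In ES-LIF(-) against ES-LIF(+) 1 of 9 was called, Glb1, which was lower, where 7.71% of all tested genes were called, 4.03% higher and 3.68% lower. Adjusted p was also under 0.05 for Ctsa and Gusb, which stayed within 1.5-fold in opposite directions. With no fold limit 8 members passed the adjusted p in CP, 8 in CM and 3 in ES-LIF(-) against ES-LIF(+) and 3 in CM against CP, where 51.9%, 65.3%, 14.3% and 36.7% of all tested genes did. The median of the ES-LIF(-) differences over the members was -0.22 against 0.03 over all tested genes. No member was called between CM and CP by limma, against 19.5% of all tested genes, 9.06% higher and 10.4% lower. Ctsl, Hexa and Glb1 passed the adjusted p there without the fold, 5 members had an unadjusted p under 0.05, as did 45.2% of all tested genes, and a one-way analysis of variance with the same limits also called 0. By order of mean signal Ctsl, Ctsz, Ctsd and Ctsa peaked in CP, and Ctsb, Hexa, Gusb and Lamp2 peaked in CM, although apart from Ctsl and Hexa the difference between CM and CP had an adjusted p above 0.05 for each of these.

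The check over all probe sets kept the direction of each member in CP and CM against ES-LIF(+), but not each call. A further set of Gusb and of Ctsz was called where the brightest was not. The other set of Ctsa was not called, although the brightest was. Probe sets of a gene are not independent of each other, and Ctsb and Lamp2 have 4 tested each. Of 19 tested, 13 were called in CP, each higher, where 19.3% of all 26083 tested probe sets were higher and 11.6% lower. In CM 12 were called higher and 1 lower against ES-LIF(+), where 26.2% of all were higher and 21.6% lower. All 4 tested probe sets of Ctsb were called higher in CP and CM. The pair with the least signal read 45.7 to 83 and 20.5 to 106.6 in ES-LIF(+), mostly below the array median, so that the size of their fold changes is poorly set and is not ranked. By mean signal rather than mean log2 another probe set of Ctsb would be the brightest, at 8824 ± 345 in CP and 10218 ± 289 in CM against 1541 ± 166 in ES-LIF(+) (SD, n = 3 each), with 2.51 and 2.72. The remaining probe set of Ctsb and 1 of the pair for Ctsl did not pass the filter on dim values. Ctsd, Hexa and Glb1 have 1 probe set each, so that their values have no such check.

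**Figure D3:**
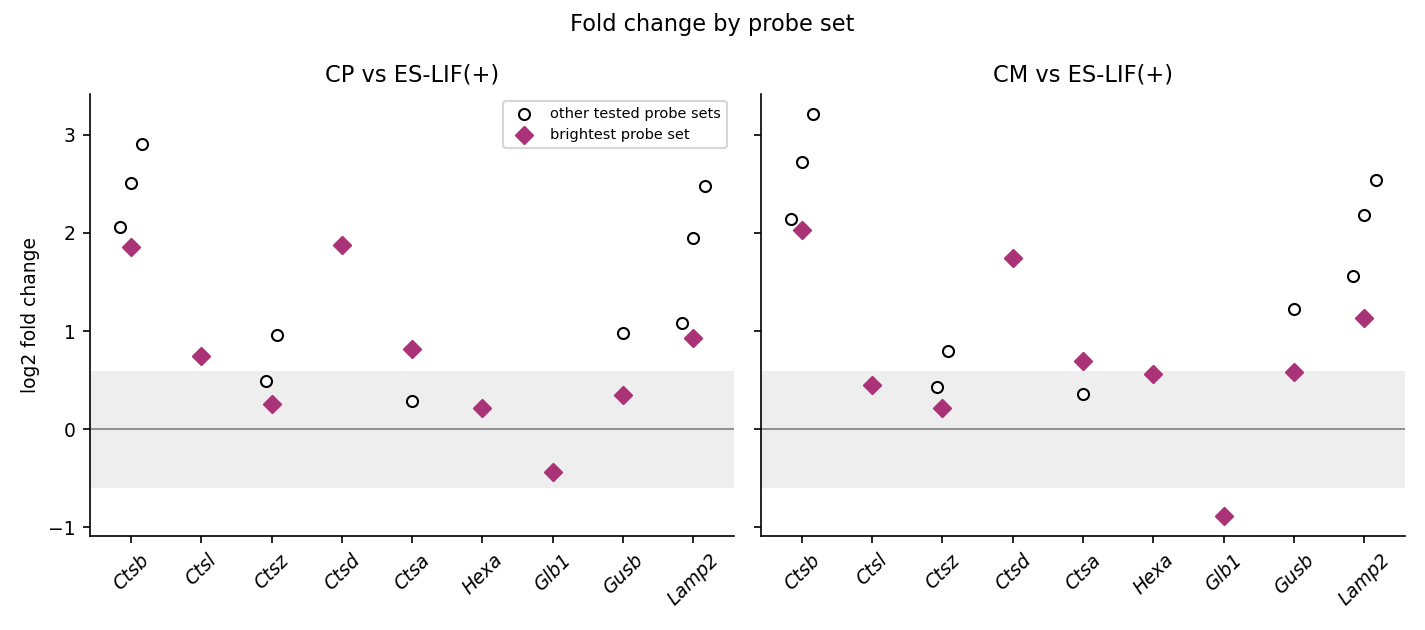
Log2 fold change of each of the 19 tested probe sets of the members in CP and CM against ES-LIF(+), with a diamond for the brightest probe set of a gene, open circles for the others and a grey band for changes within 1.5-fold. The brightest set lies below the others for Ctsz, Gusb and Lamp2 in both comparisons and above the other for Ctsa. For Ctsb it lies below the other bright set in both, and the fold changes of the dim sets of Ctsb are poorly set.

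Other lysosomal genes were taken from lists of 117 genes, of which 109 had a probe set naming them alone and 96 were tested. In CP against ES-LIF(+) 35 were higher and 3 lower (36.5% and 3.12%), with a median log2 fold change of 0.41, and in CM 43 were higher and 10 lower (44.8% and 10.4%), with a median of 0.41. ES-LIF(-) had 2 higher and 5 lower than ES-LIF(+) (2.08% and 5.21%), where 4.03% and 3.68% of all tested genes were. CM had 11 higher and 6 lower than CP (11.5% and 6.25%), where 9.06% and 10.4% of all tested genes were. The shares of higher genes in CP and CM against ES-LIF(+) stand beside 18.7% and 25.7% of all tested genes. With median centring the medians in CP and CM against ES-LIF(+) were 0.13 and 0.09, against -0.24 and -0.26 over all tested genes. Those of V-ATPase subunits (-0.07 and -0.12), of sorting genes in CP (-0.21) and of membrane proteins in CM (-0.21) turned negative. They too stayed above the medians of all tested genes. Those of sorting genes in CM (-0.36) and of regulators in CP and CM (-0.71 in each) lay below them.

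Among 7 tested further cathepsins 4 were called in CP and 5 in CM, each higher. Ctsh, a cysteine aminopeptidase, averaged 331 ± 23.3 in CP and 548 ± 16.6 in CM against 74.3 ± 51.7 in ES-LIF(+) (SD, n = 3 each). It was called in both, with limma adjusted p of 9.02e-05 and 2.56e-06, but read 131.5, 60.3 and 31 in ES-LIF(+), below the array median on 2 of 3 arrays, so that no size of fold is given. Ctss, the cathepsin of antigen-presenting cells, averaged 25.7 ± 21.4 in ES-LIF(+), 58.2 ± 41.7 in CP and 201 ± 39.7 in CM. It exceeded the array median on the CM arrays alone and passed the filter only through them. Its calls as higher in CM, which enter the count above, therefore rest on that selection, and no size of fold is given. The 8 placental cathepsins, a cluster expressed in rodent trophoblast, had no probe set that passed the filter. The tested inhibitors of the cystatin family, Cst3 and Cstb, were both higher in CP and CM. Cst3 averaged 4979 ± 119 in CP and 12676 ± 561 in CM against 2361 ± 272 in ES-LIF(+). Its log2 fold changes were 1.08 (limma adjusted p = 2.14e-07) and 2.42 (adjusted p = 1.3e-11). Cst3 also stood 1.34 higher in CM than in CP, whereas the cysteine cathepsin Ctsb was not called between these stages.

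Other glycosidases and sulfatases were called higher for 11 of 19 in CP and 13 of 19 in CM, with 1 lower in each. Naglu, which removes N-acetylglucosamine from heparan sulfate, averaged 560 ± 74.7 in CP and 468 ± 38.8 in CM against 78.2 ± 44.7 in ES-LIF(+). It read 27.4, 111.7 and 95.5 in ES-LIF(+), near or below the array median, so that no size of fold is given. Fuca2, a fucosidase, averaged 554 ± 23.7 in CP and 2071 ± 92.7 in CM against 187 ± 36.9 in ES-LIF(+), a log2 fold change of 3.38 in CM (limma adjusted p = 3.55e-11). The exception was Manba, β-mannosidase, with 2466.8, 2905.5 and 2775.9 in ES-LIF(+), 509.7, 726.8 and 837.5 in ES-LIF(-), 1510.1, 1252.4 and 1653.5 in CP, and 402.4, 539 and 630.7 in CM. Its order of stages is that of Glb1, with log2 fold changes of -1.98 in ES-LIF(-), -0.88 in CP and -2.36 in CM against ES-LIF(+), and limma adjusted p of 4.86e-06, 0.000832 and 2.33e-08. Manba was thus called lower than ES-LIF(+) in both ES-LIF(-) and CM, as Glb1 was. This order is not particular to them. The peptidase Scpep1 shares it, with means of 10289 in ES-LIF(+), 9525 in CP, 6730 in ES-LIF(-) and 5532 in CM. The glycosidase Idua also had its highest mean in ES-LIF(+), at 432 against 343 in ES-LIF(-), 363 in CP and 357 in CM.

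Hydrolases of lipids, phosphates and nucleic acids were higher for 6 of 12 in CP and 7 of 12 in CM. Among them, Smpd1, acid sphingomyelinase, reached log2 fold changes of 1.70 and 2.37, and Psap, the precursor of the saposins that assist glycosidases on membrane lipids, 1.40 and 1.08. Further peptidases were higher for 3 of 6 in both stages, among them Cpq and Lgmn, the legumain that processes cathepsins, and 2 were lower in CM, Scpep1 and Dpp7. Cpq read 23.5, 59.2 and 82.6 in ES-LIF(+), below the array median on each array, so that its fold change is poorly set and is not ranked. Among other membrane proteins 4 of 16 were higher in CP (25%) and 5 of 16 in CM (31.2%), with Cln3 lower in CM. Of 16 subunits of the proton pump V-ATPase 3 were higher in each stage (18.8%). Of 9 genes for the sorting of lysosomal enzymes, 2 were higher in CP (22.2%), and in CM 3 were higher and 2 lower (33.3% and 22.2%). Sort1, a receptor that carries some hydrolases to the lysosome, stood at 0.88 and 1.61. Over all tested genes 18.7% were higher in CP, and in CM 25.7% were higher and 23.9% lower. The shares of V-ATPase and sorting genes in CP are thus near that of all tested genes. The difference between lists was not tested.

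**Figure D4:**
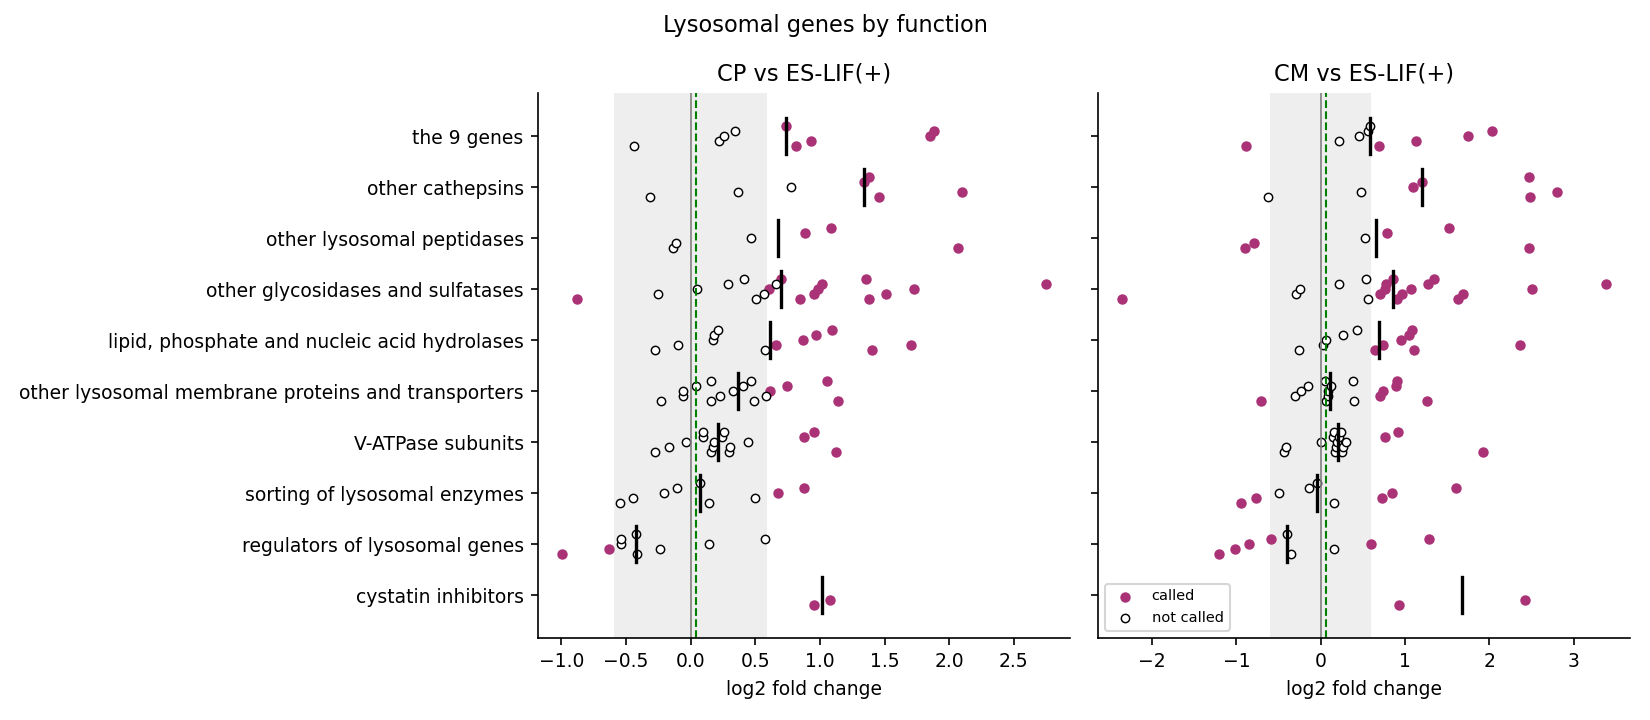
Log2 fold change of every tested gene of each lysosomal list and of the 9 members in CP and in CM against ES-LIF(+), with a point for each gene (filled where called), a bar at the list's median, a grey band for changes within 1.5-fold and a dashed line at the median of all tested genes, 0.04 in CP and 0.06 in CM. The members lie at a median of 0.74 in CP and 0.58 in CM, and the regulators are the list with a median below 0 in both panels besides the sorting genes in CM.

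Of 9 tested regulators of lysosomal genes 2 were lower in CP, where 13.3% of all tested genes were lower. In CM 2 were higher and 4 lower, where 25.7% and 23.9% of all tested genes were. The medians were negative, at -0.43 in CP and -0.40 in CM. Tfeb read 523.1, 531.8 and 600 in ES-LIF(+), 36.5, 88.2 and 83.4 in ES-LIF(-), 313.8, 247.9 and 250.1 in CP, and 377.3, 383 and 323.1 in CM. All ES-LIF(+) arrays were highest and all ES-LIF(-) arrays were lowest and below the array median. The log2 fold change against ES-LIF(+) was -2.80 in ES-LIF(-) (limma adjusted p = 2e-06), -0.99 in CP (adjusted p = 0.00245) and -0.59 in CM (adjusted p = 0.0372). Ctsb, Ctsd, Ctsa and Lamp2 were higher in CP and CM. In ES-LIF(-), where Tfeb was lowest, these members read -0.04, -0.17, -0.56 and -0.30 against ES-LIF(+), none of them called. A tie between the level of Tfeb and these members was not tested. Tfe3, of the same family, was lower in CM by -0.85 (adjusted p = 1.83e-07), and Mitf, also of that family, was higher in CM, at 638 ± 83.8 in CM against 253 ± 29.96 in ES-LIF(+) (SD, n = 3 each), by 1.28 (adjusted p = 9.65e-06). Flcn and Fnip1, partners in nutrient signalling at the lysosome, were both lower in CM, by -1.20 and -1.01. The activity of these factors depends on their place in the cell, which arrays of RNA do not measure. Of the promoters printed, Ctsd and Ctsa hold GTCACGTG and were higher in CP and CM, and Glb1 holds it and was lower in CM. Ctsl holds CACGTG without the longer form and was called higher in CP. Of the members whose windows lack CACGTG, Lamp2 was higher in both stages. Ctsz, Hexa and Gusb were called in neither by their brightest probe sets. Whether these letters bear on the levels was not tested.

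**Figure D5:**
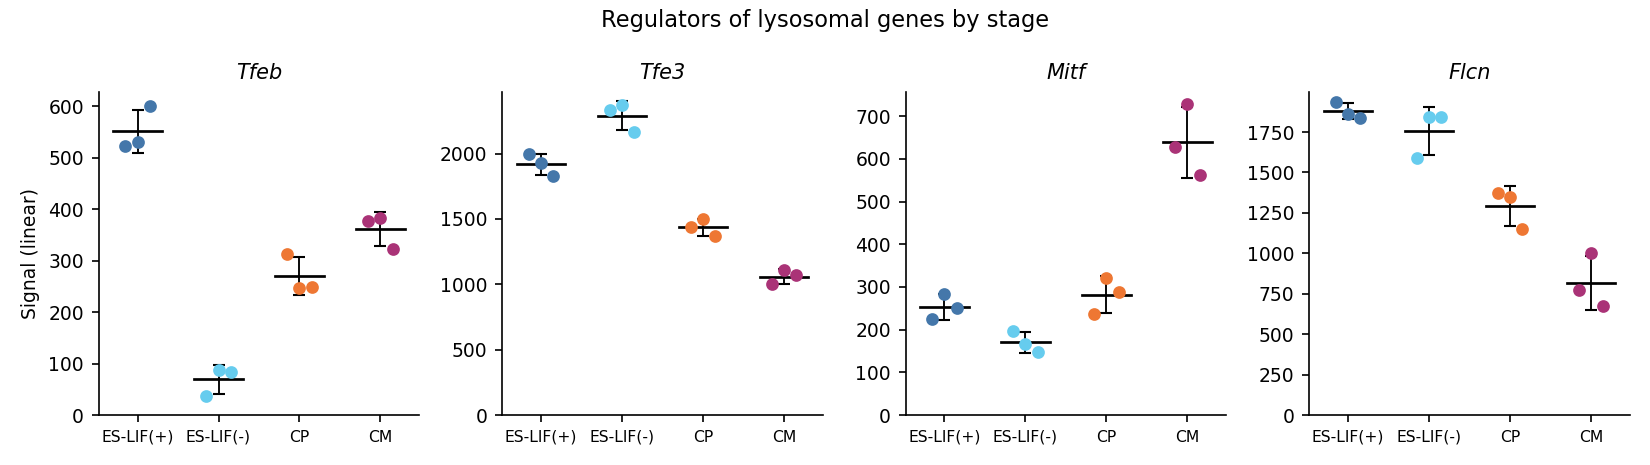
MAS5 signal (linear axis from 0) of Tfeb, Tfe3, Mitf and Flcn by stage, with a point for each array, a line at the mean of 3 and bars of 1 SD. Tfeb is highest in ES-LIF(+), at 523.1 to 600, and lowest in ES-LIF(-), at 36.5 to 88.2.

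The members were also set against each other and against all genes by Pearson's r of log2 values over the 12 arrays, which share their 4 stages, so that r is a description of likeness. Of 36 pairs of members 6 had an r above 0.9, the highest being 0.988 for Ctsb and Ctsd, and 8 were below 0, each of them a pair with Glb1, down to -0.895 with Gusb. Of the 28 pairs without Glb1 the lowest was 0.226, for Ctsz and Gusb. Among 13166 other genes the nearest to Ctsb were Gsn, the actin-severing gelsolin, at 0.9981 and Thbs1, thrombospondin, at 0.9975. Nearest to Ctsd were Igf2 at 0.9964 and the homeobox gene Meis2 at 0.9959. Ctsa was nearest to Il6st, the shared receptor of the IL6 family and LIF, at 0.9851 and to Fn1, fibronectin, at 0.9849, and Ctsl to Dcn, the matrix proteoglycan decorin, at 0.9825 and Rufy1 at 0.9794. Glb1 was nearest to Slc12a8 at 0.9557 and Klf5, a factor of the pluripotent state, at 0.9275. Lamp2 was nearest to R3hdm4 at 0.9839 and Anxa3 at 0.9811, Gusb to Ccdc85b at 0.9605 and Casp6 at 0.9466, Hexa to Scrn1 at 0.9703 and Gamt at 0.9683, and Ctsz to Ksr1 at 0.9635 and Eml1 at 0.9591.

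Markers of some other cell types were also higher in CP and CM, and others were mixed. Summed signals of 6 genes of fibroblasts and mesenchyme (Col1a1, Col1a2, Col3a1, Dcn, Pdgfra and Postn) ran from 87172 to 94022 in CP and 48783 to 49899 in CM, against 804 to 1147 in ES-LIF(+), and 6 of 6 were called higher in both. Dcn, the gene nearest to Ctsl, is one of them, and averaged 17101 ± 523 in CP and 1262 ± 222 in CM against 33.0 ± 32.6 in ES-LIF(+). Summed signals of 8 macrophage genes, cells rich in cathepsins, ran from 1645 to 2009 in CP and 2143 to 2403 in CM, against 966 to 1210 in ES-LIF(+), with 2 of 5 tested called higher in CP and 3 in CM, while Itgam, Ptprc and C1qa exceeded the array median on all 3 arrays of no stage. Those of 8 genes of extraembryonic endoderm ran from 1517 to 1586 in CP and 1192 to 2506 in CM, against 638 to 1038 in ES-LIF(+), with 1 of 4 tested called higher in CP, and 2 higher and 1 lower in CM. Afp, Sox7, Apoa1 and Cubn exceeded the array median on all 3 arrays of no stage. Those of 5 endothelial genes ran from 1146 to 1432 in CP and 1787 to 2163 in CM, against 1209 to 1817 in ES-LIF(+), with 2 higher and 2 lower in CP, and 3 higher and 2 lower in CM. The part of these cells in the levels of Ctsb, Ctsd, Ctsa, Ctsl and Lamp2 was not tested.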

How the data were processed

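RNA from 12 cultures of CGR8-derived cells, 3 for each of ES-LIF(+), ES-LIF(-), CP and CM, was profiled on Affymetrix Mouse 430 2.0 arrays. The authors deposited linear signal intensity values made with MAS5 and scaled so that each array has a 2% trimmed mean of 500, and no detection flags were used here. After 64 control probe sets were set aside, 26083 of 45037 probe sets exceeded the array median on at least 3 of 12 arrays and were tested. Values were analysed as log2(signal + 16) in 1 linear model over all 12 arrays with limma 3.58.1 (R 4.3.3), empirical Bayes moderation and an intensity trend. P-values were adjusted by Benjamini-Hochberg over all tested probe sets, and calls were made at adjusted p < 0.05 for fold changes over 1.5. Whole-array counts took the brightest probe set that names a gene alone.

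The text names all 9 members, up to 3 called genes per list and direction with the largest changes, and the 2 genes nearest to each member. Members and lists were chosen with earlier results of these data known. Of the listed genes, 8 without a probe set of their own were not analysed here. Alternatives covered scaling, pseudocount, filter, test, variance trend, fold limit, probe set choice, arrays in the fit, a replicate block and each array left out. The fit and its calls were tested on simulated data. Precision is limited by the number of arrays, 3 a stage. The genome build behind the deposited values is not given in the sources used here, and promoter coordinates are those of RefSeq's own table.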

Additional observations from a re-analysis of the deposited data

How the results depend on the processing

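Of 864 log2 fold changes of members recomputed under 24 settings, 824 kept their direction and their side of the limits. Without the fold limit the calls among members were 8 in CP, 8 in CM and 3 in ES-LIF(-) against ES-LIF(+) and 3 in CM against CP. Of all tested genes 51.9%, 65.3%, 14.3% and 36.7% passed in these comparisons. Among other lysosomal genes the calls were 59 in CP, 13 in ES-LIF(-) and 32 in CM against CP. Median centring left 3 members higher and 1 lower in CP, reversed Ctsz in CP (-0.023) and CM (-0.10) and Hexa in CP (-0.067), and ended the calls of Ctsl and Ctsa given in the report. It also moved the share of higher genes among all calls to 30.6% in CP and 33.3% in CM, against 58.5% and 51.8% as deposited, and quantile normalization gave 46.9% and 43.7%. The mean over all probe sets of a gene, dim ones included, reversed Ctsl in CM (-0.12) and in ES-LIF(-) (-0.58) and Ctsz in ES-LIF(-) (0.046), ended the calls of Ctsl (0.30) in CP and of Ctsa in CP (0.55) and CM (0.53), added calls of Gusb in CP (0.66) and CM (0.91), and left 9 calls among other lysosomal genes in CM against CP. The cause of the differences between probe sets was not tested. Gusb in CM was called at 0.59 with a pseudocount of 1, and Hexa in CM at 0.65 after quantile normalization. Leaving out 1 array gave 5 to 7 called members in CM, 5 to 5 in CP and 1 to 2 in ES-LIF(-) against ES-LIF(+), 0 to 0 in CM against CP, and 9 to 9 by the F test. Among other lysosomal genes it gave 50 to 53 in CM, 36 to 42 in CP, 6 to 8 in ES-LIF(-) and 14 to 18 in CM against CP. The calls gained were Gusb in CM, Hexa in CM without ES-LIF(+) replicate 2 (0.68), CM replicate 1 (0.59) or CM replicate 3 (0.60), and Ctsa in ES-LIF(-), at -0.63 without replicate 1 of ES-LIF(+), at -0.62 without replicate 2 of ES-LIF(-) and at -0.59 without its replicate 3. Values near 0 changed sign for Ctsb in ES-LIF(-), which ran from -0.094 to 0.0057 and was above 0 without replicate 2 of ES-LIF(-), and for Ctsz in CM against CP without CM replicate 1 (0.0065).

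Samples with the same replicate number did not deviate together, with r between -0.047 and 0.0954 over 18 pairs, so the numbers were not taken as pairs. A replicate block in the fit gave 5, 5, 1 and 0 called members in CP, CM and ES-LIF(-) against ES-LIF(+) and in CM against CP, 9 by the F test, and 38, 52, 7 and 17 other lysosomal genes, all within 1.5 times the counts without it. Probe sets near or below the array median, such as the dim ones of Ctsb in ES-LIF(+), are the least certain, and 3 arrays a stage give the precision of every value.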
